A study of Triticum aestivum with 72 samples.

Results

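TUBA and XTH are a pair of wheat genes tied to cell growth, and all of their probe sets on an Affymetrix wheat array were followed over 36 lines. The genes were chosen with earlier results of these data known, and their probe sets were then taken by gene symbol. They are 2 of the 771 genes that carry a symbol in the supplied annotation, and 3 of its 1273 probe sets with a symbol, out of 61179 probe sets tested. TUBA is read by 2 probe sets, written here TUBA(U76558) and TUBA(CA614766) after the GenBank sequence that the annotation gives for each, and XTH by 1, annotated from D16457. No member was removed by a filter.

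The study measured transcript levels in developing seeds of bread wheat, Triticum aestivum, with polyadenylated RNA labelled with biotin. Its 72 arrays came from 36 lines of the cross RL4452 x AC Domain grown in the field, with 2 arrays per line and neither parent among them. All lines were sampled at the same stage, 5 days after anthesis, and seeds were ground whole, so every seed part contributes to each value. The 2 arrays of a line are labelled as separate biological replicates, numbered 3 and 1 in 35 lines and 3 and 2 in line H9.

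Alpha-tubulin, the product of TUBA, pairs with beta-tubulin to form the subunit of microtubules, which build the mitotic spindle and guide the laying down of cellulose in the plant cell wall. XTH encodes a xyloglucan endotransglucosylase/hydrolase, a wall enzyme that cuts xyloglucan chains and rejoins them while the wall extends. In the days after fertilisation a wheat seed divides its nuclei, forms new walls in the endosperm and expands its maternal layers, and these processes draw on both proteins.

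Several arrays stood apart from the rest. On 161 probe sets whose values fell into 2 levels, the arrays of 12 lines (A40, A91, B11, C25, D15, DH91, E5, F36, F38a, G32, H5 and J15) agreed on only 45.3% to 65.8%, against 75.8% to 99.4% in the other 24 lines. Whether arrays of these 12 lines carry the right line name was not tested, and a wrong name would change the line means and the line tests below. Only 22 of the 72 arrays had the other array of their own line as the most similar array. The 5 arrays farthest from the mean array were replicate 3 of B33 and C31 and replicate 1 of G32, E5 and B65. Arrays were hybridised on 12 days, and 4 days held only replicate 1 of the 35 lines, 5 days only replicate 3 and 3 days both. Replicate number and hybridisation day therefore overlap in large part. The line and replicate tests of the members and some correlations are given with and without the 12 lines or the 5 arrays. Correlations among tubulins and with the closest genes are given over all 72 arrays only. Most relations over line means are given over all lines and again without 2 outlying lines.

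The level of XTH covered a 4.47-fold range. Its log2 intensity had a lowest value of 9.09, a median of 10.43 and a highest value of 11.25 over the 72 arrays, equal to intensities of 544 to 2430. The lowest array was C31 replicate 3, followed by A81 replicate 3 and B33 replicate 3. The highest was F44 replicate 1.

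By line, XTH averaged 9.38 in A81 and 9.44 in B33, the lowest lines, and 10.76 in F38b and 10.85 in F82, the highest. Both arrays of A81 were low, with 9.18 in replicate 3 and 9.59 in replicate 1, and both arrays of B33 were low as well, with 9.25 and 9.62. Line C31, by contrast, held the lowest array of the series, at 9.09 in replicate 3, and one of the higher ones, at 10.82 in replicate 1. The 2 arrays of C31 were 1.73 apart, and those of DH91, the closest pair, differed by 0.001.

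Of the TUBA probe sets, TUBA(U76558) was the most uniform member. Its log2 intensity had a lowest value of 13.11, a median of 13.76 and a highest value of 13.94, a 1.78-fold range between intensities of 8828 and 15749. The 4 lowest arrays were all replicate 3, from B33, C31, H8 and A81 in that order. The name of this probe set ends in _x_at, which marks probes that also match other sequences, so signal from related tubulin transcripts cannot be told apart from that of TUBA.

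Line means of TUBA(U76558) ran between 13.42 in B33 and 13.87 in F48. In the lowest line the arrays read 13.11 in replicate 3 and 13.74 in replicate 1. In F48 they read 13.82 and 13.92. In 4 of the 5 lowest lines, B33, H8, C31 and A81, the replicate 3 array lay at 13.28 or below and the replicate 1 array at 13.71 or above. The replicate 1 arrays of H8 (13.71) and B33 (13.74) were still below the median of 13.76 over all arrays. In the other of the 5 lines, E5, both were low, with 13.43 in replicate 3 and 13.61 in replicate 1.

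The other, TUBA(CA614766), varied the most. Its log2 intensity had a lowest value of 6.94, a median of 8.93 and a highest value of 10.17, a 9.42-fold range between intensities of 123 and 1156. The lowest arrays were H8 replicate 3 at 6.94 and D15 replicate 1 at 6.98. The highest were replicate 3 of B68, F29 and A77, at 10.17, 10.14 and 10.02.

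Line means of TUBA(CA614766) ran between 7.88 in H8 and 9.80 in A77. The lowest means came from unlike arrays: H8 had 6.94 in replicate 3 and 8.82 in replicate 1, whereas D15 had 8.81 in replicate 3 and 6.98 in replicate 1. At the other end, both arrays of A77 (10.02 in replicate 3 and 9.58 in replicate 1) and of B68 (10.17 and 9.22) were above the median. The absolute difference between arrays of a line had a median of 0.80 in the 12 lines whose arrays disagreed and 0.32 in the other 24 lines. For TUBA(U76558) the same medians were 0.14 and 0.16, and for XTH 0.31 and 0.45.

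**Figure D1:**
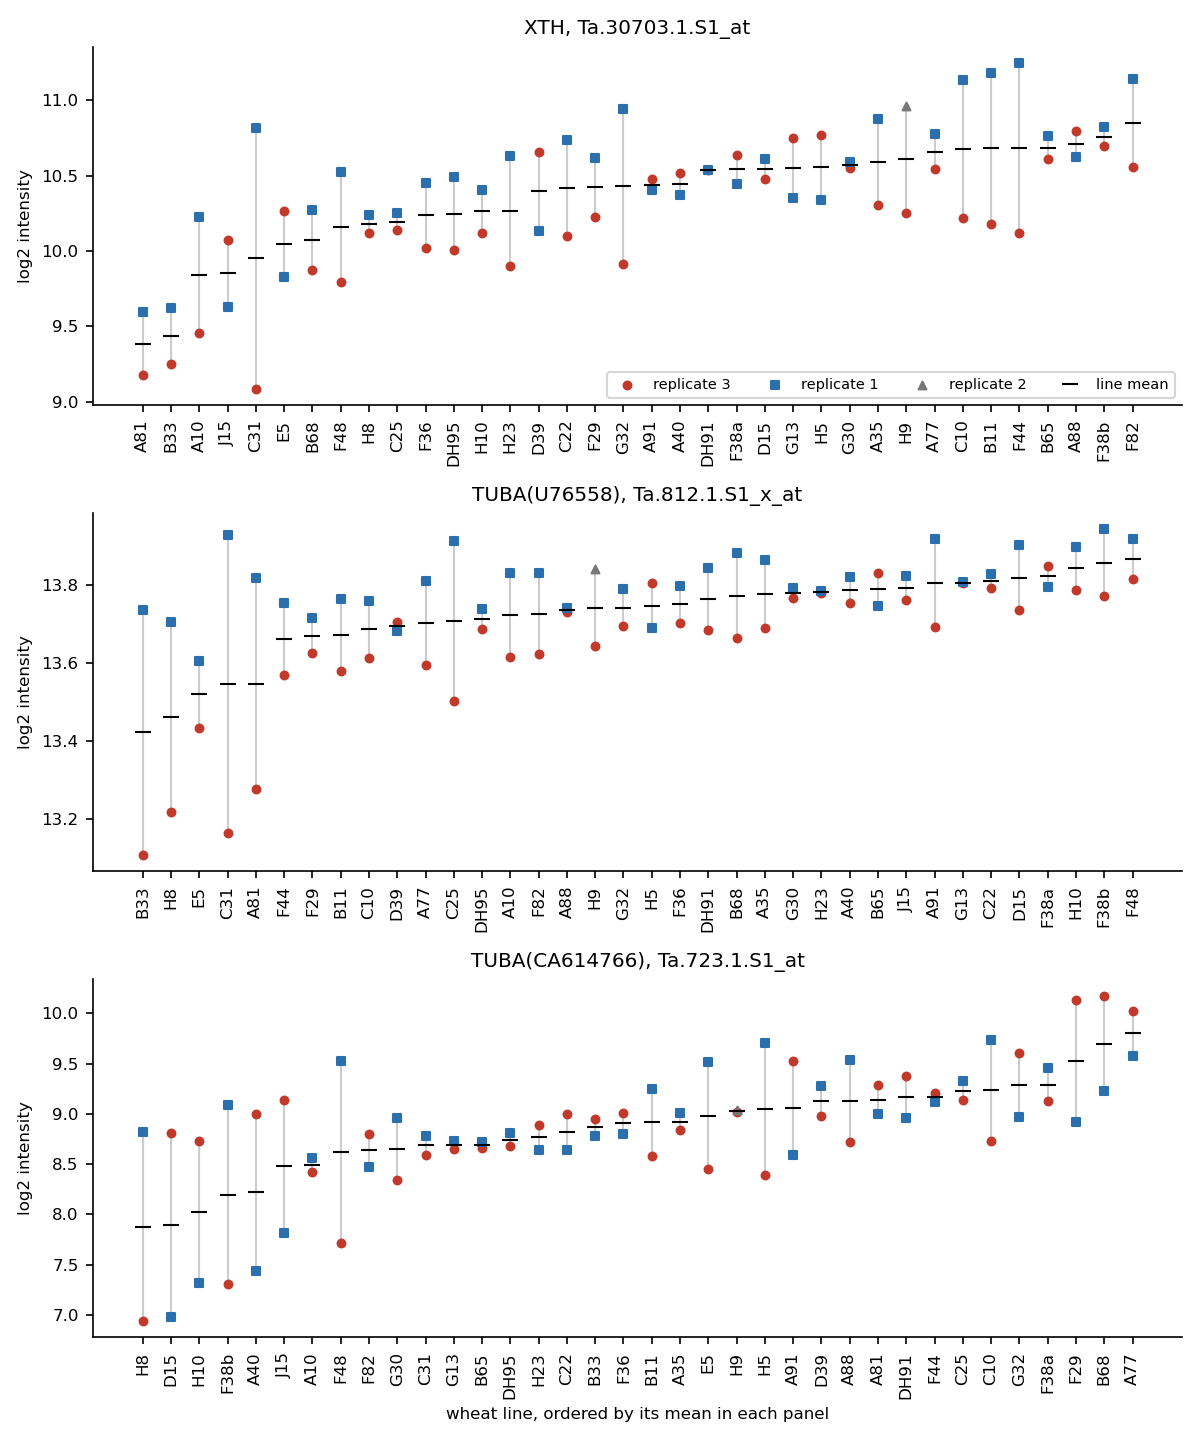
Log2 intensity of XTH and of the 2 TUBA probe sets in each of the 36 lines, ordered along the horizontal axis by the line mean. Circles are replicate 3, squares replicate 1, the triangle is replicate 2 of H9, black bars are line means, and grey lines join the arrays of a line; the arrays of C31 lie 1.73 apart for XTH and those of H8 1.88 apart for TUBA(CA614766).

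The series title names differences in expression level among genotypes, so the first comparison was between the 36 lines. No member passed it. In limma's moderated F-test over line means, with Benjamini-Hochberg adjustment over 61179 probe sets, XTH had F = 1.45 and an adjusted p of 0.509. TUBA(CA614766) had F = 1.08 and an adjusted p of 0.733, and TUBA(U76558) had F = 0.70 and an adjusted p of 0.929. Over all probe sets 2.54% passed, so 0 of 3 members is near the background. At an unadjusted p under 0.05, 13.9% of probe sets passed, and again none of the members. In fits with a block XTH had an unadjusted p of 0.0263 (replicate as a block, adjusted 0.250) and TUBA(CA614766) one of 0.0490 (day as a fixed block, adjusted 0.281).

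Arrays of a line were spread about as widely as arrays of different lines. The residual SD on the log2 scale was 0.42 for XTH, 0.18 for TUBA(U76558) and 0.64 for TUBA(CA614766), against a median of 0.22 over all probe sets. The intraclass correlation, the share of variance that lies between lines, was 0.15 for XTH, -0.16 for TUBA(U76558) and -0.0012 for TUBA(CA614766), with a median of 0.064 over all probe sets. A value at or below 0 means that arrays of a line were no more alike than arrays of different lines. In the order of line means no step between neighbouring lines exceeded the standard error of a difference between lines, which was 0.41 for XTH, 0.18 for TUBA(U76558) and 0.62 for TUBA(CA614766).

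Without the 12 lines whose arrays disagreed, the adjusted p was 0.452 for XTH, 0.925 for TUBA(U76558) and 0.613 for TUBA(CA614766). The value of a line in replicate 3 was little related to its value in replicate 1. Over 35 lines Pearson's r between replicates was 0.30 for XTH, 0.15 for TUBA(U76558) and -0.017 for TUBA(CA614766), given as a description. F38a and F38b, lines that share a number in their names, differed by -0.22 in XTH (F38a minus F38b, SE 0.41), by -0.035 in TUBA(U76558) (SE 0.18) and by 1.09 in TUBA(CA614766) (SE 0.62).

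The second comparison set replicate 3 against replicate 1 within the 35 lines that have both, with the line as a block. XTH and 1 of the TUBA probe sets were lower in replicate 3. XTH averaged 10.20 ± 0.45 in replicate 3 and 10.50 ± 0.42 in replicate 1 (SD, n = 35 each), a difference of -0.31 (SE 0.084) or 0.81-fold. It was higher in replicate 3 in 9 of the 35 lines, and limma's adjusted p was 0.0412. The call passed in 15 of 35 fits that left out 1 line (adjusted p 0.0215 to 0.0742) and was lost without any 1 of A10, A35, A77, A81, B11, B68, C10, C22, C31, D15, DH95, F29, F36, F44, F48, F82, G32, H8, H10 and H23. Replicate 3 arrays had a lowest value of 9.09, a median of 10.22 and a highest value of 10.80, against 9.59, 10.53 and 11.25 in replicate 1, so the 2 groups overlapped over most of their range.

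TUBA(U76558) averaged 13.64 ± 0.19 in replicate 3 and 13.81 ± 0.079 in replicate 1 (SD, n = 35 each), a difference of -0.16 (SE 0.034) or 0.89-fold, with limma's adjusted p of 0.0149. Only 4 of the 35 lines were higher in replicate 3. Replicate 3 arrays had a lowest value of 13.11, a median of 13.69 and a highest value of 13.85, against 13.61, 13.81 and 13.94 in replicate 1. The groups overlapped, and the low arrays stretched the range of replicate 3 downward. After quantile normalization the difference was -0.076 (adjusted p 0.0737), and without the 22 lines in which neither array was nearest to the other it was -0.13 (adjusted p 0.220). For XTH the same settings gave -0.26 (adjusted p 0.0575) and -0.39 (adjusted p 0.105).

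TUBA(CA614766) averaged 8.85 ± 0.67 in replicate 3 and 8.86 ± 0.64 in replicate 1 (SD, n = 35 each), a difference of -0.0043 (SE 0.15) with limma's adjusted p of 0.992. It was higher in replicate 3 in 17 of 35 lines. Its within-line differences had a lowest value of -1.88 and a highest value of 1.83. The 2 TUBA probe sets thus gave different answers in this comparison; the difference between their shifts was not tested.

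Over all probe sets, 1.98% were lower and 0.616% higher in replicate 3, which is 2.60% in either direction, and the median difference was -0.0044. The calls for TUBA(U76558) and XTH are to be read with the day of hybridisation. With the day as a fixed block the difference of TUBA(U76558) was -0.064 (adjusted p 0.885) and that of XTH turned to 0.14 (adjusted p 0.906). With the day as a random block the differences were -0.15 (adjusted p 0.497) and -0.22 (adjusted p 0.598). On the days that held both replicates, days 5, 6 and 10, replicate 3 minus replicate 1 was -0.058, -0.036 and 0.0027 for TUBA(U76558). For XTH it was -0.036, 0.35 and 0.18 on the same days. In F38a and G30, the lines with both arrays on 1 day, it was 0.052 and -0.026 for TUBA(U76558) and 0.19 and -0.038 for XTH.

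The day means differed. Day 9, with 5 replicate 3 arrays, had the lowest mean of both XTH (9.73) and TUBA(U76558) (13.38). Replicate 3 of A81 and B33 was among them. Replicate 1 of these lines, on days 3 and 6, was low in XTH too, at 9.59 and 9.62. The part of line and of day in the low means was not tested. Day 4, with 7 replicate 1 arrays and the replicate 2 array of H9, had the highest mean of XTH (10.87), and day 2 the highest of TUBA(U76558) (13.87). The day means of TUBA(CA614766) lay between 8.52 and 9.24.

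**Figure D2:**
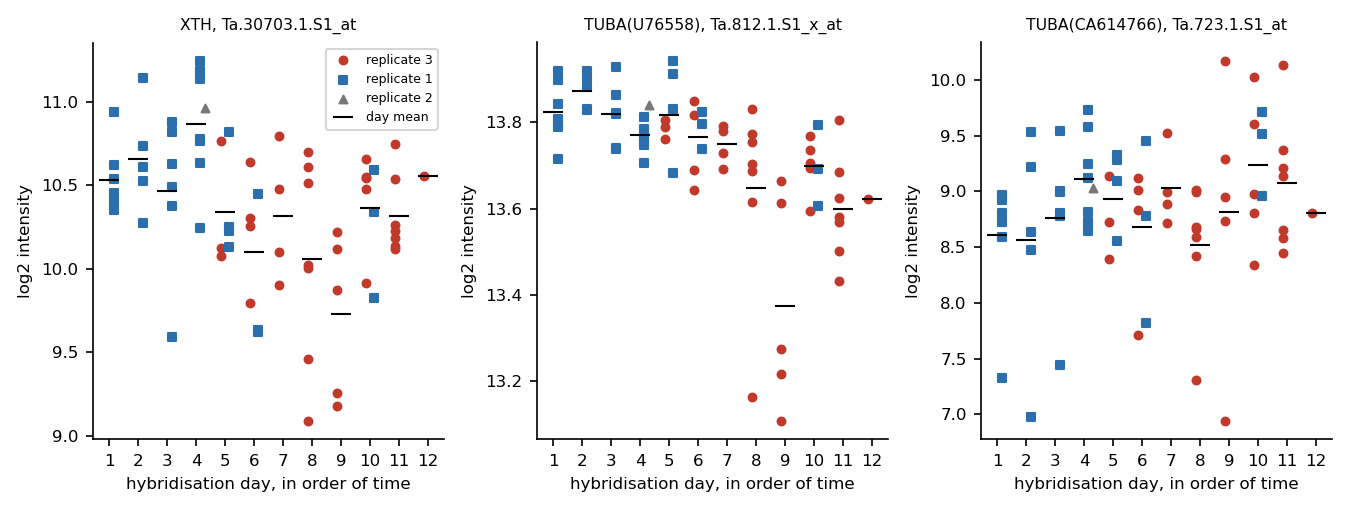
Log2 intensity of XTH and of the 2 TUBA probe sets by hybridisation day, numbered in order of time along the horizontal axis. Circles are replicate 3, squares replicate 1, the triangle is replicate 2 of H9 and black bars are day means; day 9 has the lowest means of XTH (9.73) and TUBA(U76558) (13.38).

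Array quality was read beside these differences. The log2 ratio of 3' to 5' signal in 3 wheat control genes is a measure of RNA and labelling quality. Its median was -0.70 in replicate 3 and -0.78 in replicate 1. The ranges, -0.99 to -0.43 and -1.14 to -0.46, overlapped widely. With this ratio as a covariate the replicate difference was -0.15 for TUBA(U76558) (adjusted p 0.112) and -0.22 for XTH (adjusted p 0.293). Without the 12 lines whose arrays disagreed the differences were -0.19 (adjusted p 0.0489) and -0.42 (adjusted p 0.0356). Without the 5 farthest arrays, among them C31 and B33 of replicate 3, they were -0.14 (adjusted p 0.0126) and -0.26 (adjusted p 0.0530). The part of RNA quality in these differences was not tested beyond these fits. Here and elsewhere, fewer cells of a type and less RNA per cell cannot be told apart in ground seeds.

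The third comparison asked whether TUBA and XTH varied together across lines. With TUBA taken as the mean of its probe sets, Pearson's r with XTH over 36 line means was 0.19 (permutation p = 0.275, 100000 resamples, two-sided) and Spearman's rho was 0.19 (permutation p = 0.268). The probe sets differed. TUBA(U76558) and XTH had r = 0.52 over line means (permutation p adjusted over 3 pairs 0.00498), but rho was 0.21 (adjusted 0.310) and r was 0.38 without B33 and H8. TUBA(CA614766) and XTH had r = 0.064 (adjusted 0.711) and rho = 0.12 (adjusted 0.506).

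The relation of TUBA(U76558) with XTH differed between the replicates; this difference was not tested. It was 0.65 over replicate 3 arrays and 0.17 over replicate 1 arrays. With TUBA(U76558) read in replicate 3 and XTH in replicate 1 of the same lines, r was 0.30, and the other way round it was -0.17. Over all 72 arrays r was 0.57. It was 0.63 over 48 arrays without the 12 lines whose arrays disagreed, and 0.41 over 67 arrays without the 5 farthest. Centred on the hybridisation day it was 0.46, and in the 8 days with at least 6 arrays it lay between -0.47 and 0.87, above 0 in 6 of them. For the replicate differences of 35 lines r was 0.43 (permutation p adjusted over 3 pairs 0.028), rho was 0.36 (adjusted 0.0966), and r was 0.25 without C31 and B33.

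The 2 probe sets of TUBA showed no positive relation with each other. Over line means r was -0.11 (permutation p adjusted over 3 pairs 0.711) and rho was -0.34 (adjusted 0.131). Over the 72 arrays r was -0.034, with 0.076 in replicate 3 and -0.35 in replicate 1. The annotation places both on the same gene. No probe sequence was at hand to compare what they bind, so whether TUBA(CA614766) reads TUBA transcripts was not tested. Its values, and the mean over both probe sets, are those of TUBA only as the annotation has it.

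**Figure D3:**
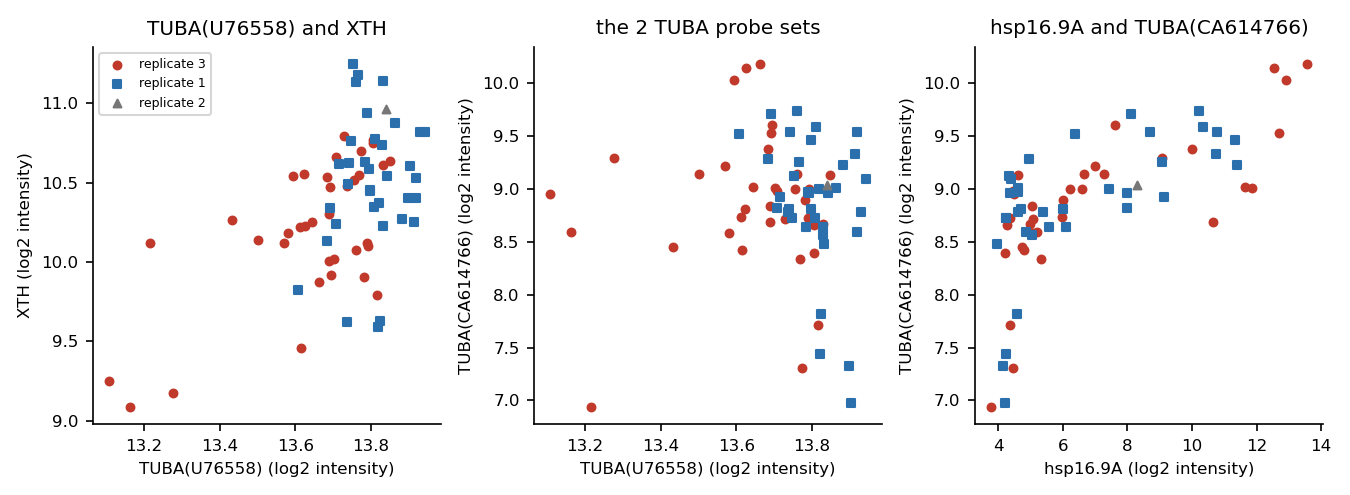
Log2 intensity of 1 probe set against another over the 72 arrays, with circles for replicate 3, squares for replicate 1 and a triangle for replicate 2 of H9. TUBA(U76558) and XTH (r = 0.57) are both low in replicate 3 of B33, C31 and A81, the 2 TUBA probe sets show no common trend (r = -0.034), and TUBA(CA614766) is higher where hsp16.9A is higher (r = 0.66).

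The tubulins of the annotation comprise 10 probe sets of 6 genes: both TUBA probe sets and 8 probe sets of the beta-tubulins tubb1, tubb2, tubb3, Tubb4 and Tubb5. None of the 10 differed between lines (adjusted p at least 0.303, in limma's moderated F-test), and 1 did at an unadjusted p under 0.05, where the shares over all probe sets were 2.54% and 13.9%. The smallest adjusted p values were 0.303 and 0.424 for probe sets of Tubb5, and 0.704 for tubb2. In the replicate comparison 1 of 10 passed, which was TUBA(U76558), and 9 of 10 were lower in replicate 3, with a median difference of -0.077. Over all probe sets 1.98% were called lower and the median difference was -0.0044. The lower and upper quartiles of that difference were -0.060 and 0.046. How many of all probe sets were lower by sign alone was not counted. A negative median makes such decreases common, so 9 of 10 has no background share here. The 9 include TUBA(CA614766), whose difference of -0.0043 is close to the median of all probe sets. Probe sets of the same gene, as for Tubb5, are not separate observations. Next to TUBA(U76558) came Tubb4, with a difference of -0.15 and an adjusted p of 0.111.

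TUBA(U76558) was positively related to each beta-tubulin probe set, whereas TUBA(CA614766) had r near 0 or below. Over the 72 arrays r of TUBA(U76558) with the 8 beta-tubulin probe sets was 0.26 to 0.64, with a median of 0.52. The 28 pairs among the beta-tubulins had a median of 0.52 too, but they include pairs within the gene Tubb5, at 0.69 to 0.98. For TUBA(CA614766) the same values were -0.36 to 0.086, with a median of -0.083 and 2 of 8 above 0. The SD over arrays of the beta-tubulin probe sets was 0.14 to 0.29, against 0.16 for TUBA(U76558) and 0.64 for TUBA(CA614766). These correlations share arrays and are given as a description.

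**Figure D4:**
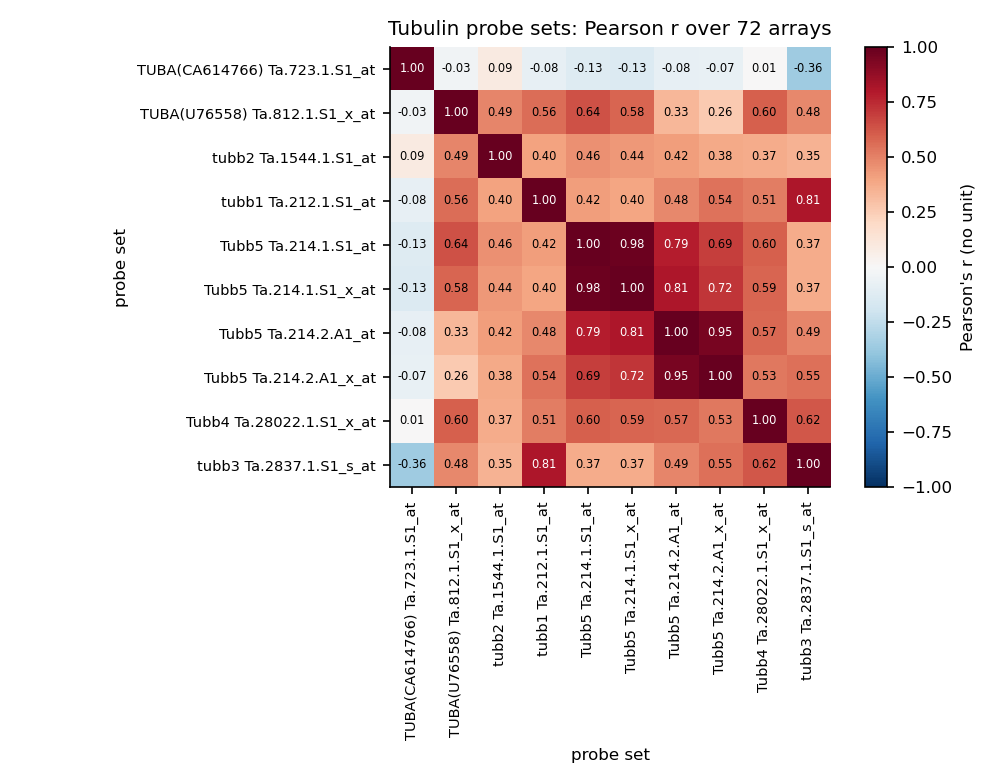
Pearson's r over the 72 arrays for each pair of the 10 tubulin probe sets, with red for positive and blue for negative values on a scale of -1 to 1. The row of TUBA(CA614766) stays between -0.36 and 0.09, and that of TUBA(U76558) lies between 0.26 and 0.64 for the beta-tubulins.

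Among genes with a symbol, those closest to TUBA, read as the mean of its probe sets over the 72 arrays, were LOC543368 (r = 0.85), LOC543416 (0.85), LOC780664 (0.84), LOC543404 (0.83) and LOC543421 (0.82). Over the 36 line means their r lay between 0.83 and 0.86. The most opposed were LOC100037602 (-0.69), LOC543096 (-0.62) and LOC542806 (-0.59). The annotation gives these genes no name beyond the locus. The TUBA mean follows its more variable probe set: 4 of these 5 genes, all but LOC780664, were also among the 5 closest to TUBA(CA614766) alone.

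Read alone, TUBA(U76558) had other neighbours: LOC780667 (r = 0.89), LOC542901 (0.87), LOC100049037 (0.86), LOC543076 (0.85) and LOC543072 (0.84). The probe set of LOC100049037 shares the sequence cluster number in its name with TUBA(U76558). XTH was closest to LOC543072 (0.78), LOC542943 (0.71), LOC542913 (0.70), LOC780602 (0.69) and LOC100125735 (0.68), so LOC543072 stood among the 5 closest of both. The most opposed to XTH were LOC100049018 (-0.51), LOC542903 (-0.51) and LOC780601 (-0.50), of which LOC100049018 has the synonym rbcl, the large subunit of Rubisco encoded in the chloroplast. None of the genes closest to TUBA or XTH differed between lines, at adjusted p of 0.326 or more. In the replicate comparison 4 of the genes among the 5 closest to XTH or to TUBA(U76558) passed, all lower in replicate 3: LOC780602 (-0.36, adjusted p 0.0155), LOC543072 (-0.30, adjusted p 0.0188), LOC542901 (-0.20, adjusted p 0.0418) and LOC543076 (-0.18, adjusted p 0.0457). Over all probe sets 1.98% were lower. These genes were picked by r over the same arrays with members lower in replicate 3, so a shared shift follows in part from the choice. With the day as a block no probe set passed this comparison.

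Genes of cell growth were read beside the members. Profilin-1, which binds actin monomers, had 2 probe sets, and none passed either test. Their differences between replicate 3 and replicate 1 were -0.21 (adjusted p 0.0740) and -0.077 (adjusted p 0.109). The cell wall list held 5 probe sets of 4 genes. In the line test, which 2.54% of all probe sets passed, 1 of 5 did, GLU1A (adjusted p 0.00015), with line means between 6.69 in H8 and 10.52 in B65. In wheat GLU1A names a beta-glucosidase that acts on defence glucosides rather than on the wall. COMT1, a methyltransferase of lignin synthesis, had an adjusted p of 0.0567. In the replicate comparison XTH alone of the 5 passed, against 2.60% of all probe sets. By sign alone, a share not counted over all probe sets, 4 of 5 were lower in replicate 3. Besides XTH these were GLU1A (-0.22) and both probe sets of the gene xip (-0.14 and -0.11), and none of them passed. COMT1 had a difference of 0.015. The median difference of the 5, -0.14, is that of a xip probe set, against -0.0044 over all probe sets.

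The list of cell division and chromatin genes held 20 probe sets of 6 genes, mostly histones H2A and H2B. None of the 20 passed the line test, and 2 had an unadjusted p under 0.05, against 13.9% of all probe sets. The smallest adjusted p was 0.0985, for wcH2B-6, a histone H2B. In the replicate comparison 2 of 20 were lower in replicate 3 and none higher, and both were probe sets of Hmgb3, a high mobility group chromatin protein, at -0.36 (adjusted p 0.0149) and -0.26 (adjusted p 0.0155). Over all probe sets 1.98% were lower, and with the hybridisation day as a fixed or random block neither Hmgb3 probe set passed. The median difference of the list was -0.068, against -0.0044 over all probe sets. By sign alone, a share not counted over all probe sets, 17 of 20 were lower. Probe sets of the same gene are not separate observations. Gibberellin 20-oxidase, an enzyme that makes precursors of the growth hormone gibberellin, had 4 probe sets of 3 genes, and none passed either test. Its smallest adjusted p was 0.517 between lines, for GA20ox1d, and 0.124 between replicates, for GA20OX1-A at -0.12.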

How the data were processed

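Gene expression was measured with a 1-colour array in 72 samples, 2 for each of 36 lines. The authors summarised each probe set with RMA, per the submitters' processing notes, and deposited linear intensities (version, annotation and build not given in the sources used here), and the log2 intensity was computed here with a pseudocount of 0. Of 61290 probe sets, 111 controls were left out, and 1273 of the 61179 tested have a symbol in the supplied annotation (59906 have none), with synonyms from RefSeq. Hybridisation days came from the array run records and were numbered 1 to 12.

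Lines were compared with limma 3.58.1 in R 4.3.3 by a moderated F-test, and replicates with the line as a block, adjusted by Benjamini-Hochberg over all probe sets with a threshold of 0.05. H9 has no replicate 1 and stayed out of the replicate comparison. Both tests were also run on simulated data with independent noise and no day effect. That run cannot show how they behave where replicate and day overlap. Correlations used permutation tests of 100000 resamples. Whether replicates share a plot or a day of sampling is not given, so p-values measure the spread between these samples.

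The members and lists were chosen with earlier results of these data known. All member probe sets are named; for each gene the 5 most alike and 3 most opposed genes by r over arrays (the same rule for each TUBA probe set alone was added later), and in each list the smallest adjusted p values. Lists were tubulins, other cytoskeleton, cell wall, cell division and chromatin, growth hormone genes, green layers, starchy endosperm, embryo and aleurone, anther, serpins and inhibitors (with purothionins), and heat shock. They were matched on symbol or synonym, with a species prefix allowed, and glutenin genes were kept out of the cell wall list. The 2-level probe sets have a gap of at least 0.5 on the log2 scale with at least 14 arrays on each side, and lines under 70% agreement count as disagreeing. Alternatives changed the normalization, pseudocount (16), filter (mean log2 of at least 5), block, ratio and samples.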

Additional observations from a re-analysis of the deposited data

How the results depend on the processing

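The line test of the 3 members stayed above an adjusted p of 0.05 under the 11 alternatives, at 0.192 to 0.796 for XTH and TUBA(CA614766) and 0.675 to 0.958 for TUBA(U76558), and in each of the 72 fits without 1 array (lowest 0.147, 0.557 and 0.613 for XTH, TUBA(CA614766) and TUBA(U76558), highest 0.707, 0.812 and 0.960). Probe sets that differed between lines numbered 1553, against 2438 without the 12 lines whose arrays disagreed, 4465 without the 22 lines in which neither array was nearest to the other, and 1220 to 3075 without 1 array (3075 without B65 replicate 3 and 2571 without B33 replicate 1). With the replicate block they numbered 1639, and the adjusted p was 0.250 for XTH, 0.675 for TUBA(U76558) and 0.716 for TUBA(CA614766), so the pairing changed no call. Same-numbered arrays did not deviate together throughout (median r 0.037 over 595 pairs of lines, 38.5% above 0.1), so the numbers were not taken to pair arrays.

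Probe sets that differed between replicates numbered 1590. In limma they were 0 with the day as a fixed block (3899 at an unadjusted p under 0.05), 0 with the day as a random block (5054) and 0 with the 3' to 5' ratio (7894), and 6 without the 22 lines, 805 without the 12 lines and 965 without the line as a block (no replicate block). Leaving out each line in turn gave 695 to 2874, with more than 1.5 times the count without G13 or H5 and less than the count divided by 1.5 without A35, A77, A91, B11, C22, C31, F44, F48, F82, H8 or H23. The lower level of TUBA(U76558) in replicate 3 did not pass after quantile normalization (-0.076, adjusted p 0.0737), with the day as a fixed (-0.064) or random block (-0.15), with the ratio (-0.15) or without the 22 lines (-0.13, adjusted p 0.220), and passed in 35 of 35 fits without 1 line (-0.17 to -0.15). That of XTH did not pass after quantile normalization (-0.26, adjusted p 0.0575), with the day as a random block (-0.22), with the ratio (-0.22), without the 22 lines (-0.39, adjusted p 0.105), without the 5 farthest arrays (-0.26) or without the line as a block (-0.31, adjusted p 0.0937), turned to 0.14 with the day as a fixed block, and passed in 15 of 35 fits without 1 line (-0.33 to -0.26, adjusted p 0.0215 to 0.0742). The cause was not tested, and the smaller sets hold fewer lines. For TUBA(CA614766) no setting passed (-0.55 to 0.14, and -0.058 to 0.051 without 1 line). The correlation of TUBA and XTH over line means, 0.19, was 0.52 with TUBA(U76558) alone (permutation p = 0.00198) and 0.049 to 0.22 under the 12 other alternatives. Leaving out the 12 lines and the 5 arrays was chosen after the data were seen. With 2 arrays per line, the number of arrays limits precision, and signal over background was not analysed here.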

Other observations

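TUBA(CA614766) moved with hsp16.9A, a small heat shock protein that keeps unfolded proteins from clumping. Its probe set had a lowest log2 intensity of 3.78, a median of 5.36 and a highest value of 13.57 over the 72 arrays. That median lies near the array medians over all probe sets, which were 5.31 to 5.44. The 4 arrays lowest in TUBA(CA614766), H8 replicate 3, D15 replicate 1, F38b replicate 3 and H10 replicate 1, had hsp16.9A at 3.78, 4.21, 4.47 and 4.14. Such low hsp16.9A was not particular to them. F44 replicate 1 and F38b replicate 1 had it at 4.32 and 4.41, with TUBA(CA614766) at 9.12 and 9.09, above its median. The arrays highest in TUBA(CA614766), replicate 3 of B68, F29 and A77, had it at 13.57, 12.53 and 12.91. Over 36 line means r was 0.71 and rho 0.67 (permutation p adjusted over 24 relations 0.00024 and 0.00096, the first being the smallest the resamples can give), and r was 0.61 without B68 and A77. For the difference between replicate 3 and replicate 1 over 35 lines r was 0.61 and rho 0.76 (adjusted 0.00168 and 0.00048).

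This relation was present in every split by batch that was made, and was close to 0 across replicates. It was 0.72 over replicate 3 arrays and 0.61 over replicate 1 arrays, and 0.68 after centring on the hybridisation day. In the 8 days with at least 6 arrays it lay between 0.34 and 0.96. With TUBA(CA614766) in replicate 3 and hsp16.9A in replicate 1 of the same lines it was 0.16, and the other way round 0.086. Without the 12 lines whose arrays disagreed it was 0.68 over 48 arrays. The other members gave r of -0.048 for XTH and -0.039 for TUBA(U76558) with hsp16.9A over the 72 arrays. The test between lines gave hsp16.9A an adjusted p of 0.337.

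Lists of seed parts were set beside the members. The storage protein probe sets among 13 of the starchy endosperm averaged log2 intensities no higher than 6.67, whereas AGP-S, a subunit of the starch synthesis enzyme ADP-glucose pyrophosphorylase, averaged 11.19. The 4 anther probe sets averaged 3.55 to 5.73 and the 12 of embryo and aleurone 3.25 to 6.22. In the test between lines, which 2.54% of all probe sets passed, 1 of 8 green layer probe sets did, a probe set of PsbP (adjusted p 0.0438). The other PsbP probe set had an adjusted p of 0.135. In the starchy endosperm list 1 of 13 passed (GBSS, adjusted p 2.64e-07), and in the anther, embryo and inhibitor lists none. In the replicate comparison a probe set of PER1, in the embryo and aleurone list, was lower in replicate 3 (-0.23, adjusted p 0.0426). The other probe set of PER1 showed little difference, at -0.012 (adjusted p 0.929), and no other probe set of these lists passed. Neither PER1 probe set passed once the hybridisation day was a fixed or random block.

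The green layer sum is the log2 of the summed intensities of its 8 probe sets. A probe set each of PsbO, petC and PsbP weighs most in it, with mean log2 intensities of 12.53, 12.38 and 12.25. The sum was 13.78 to 14.77 in replicate 3 and 13.58 to 14.71 in replicate 1. Its replicate difference went with that of XTH at r = 0.54 and rho = 0.51 over 35 lines (permutation p adjusted over 24 relations 0.00558 and 0.0195), and r was 0.54 without H5 and B33. Over 72 arrays r was 0.40, and 0.28 after centring on the hybridisation day. In the 8 days with at least 6 arrays it lay between -0.67 and 0.94, above 0 in 7 of them. It was 0.25 without the 5 farthest arrays, 0.14 with XTH in replicate 3 and the sum in replicate 1, and -0.057 the other way round. Over line means it was 0.28 (adjusted 0.279), and -0.019 without B33 and C31. TUBA(U76558) went with the green layer sum over line means at r = 0.53 (adjusted 0.0179), with rho = 0.35 (adjusted 0.176) and r = 0.29 without B33 and C31. It also went with the 3' to 5' ratio, at r = -0.45 (adjusted 0.0287) and rho = -0.39 (adjusted 0.136), and at r = -0.41 without F36 and A81. With the median deviation of an array from the mean array its r was -0.44 over line means (adjusted 0.0405, rho = -0.31, adjusted 0.282, and r = -0.43 without B65 and B33). For the replicate difference that r was -0.59 (adjusted 0.00168, rho = -0.35, adjusted 0.161, and r = -0.40 without B65 and C31). TUBA(CA614766) ran opposite to the sum of the serpins and inhibitors list, at r = -0.47 and rho = -0.49 over line means (adjusted 0.0287 and 0.0284) and -0.43 without D15 and C22. That list also holds purothionins. Its serpin probe sets averaged 3.68 to 4.80 with an SD over arrays of 0.12 to 0.16, against an SD of 0.93 and 0.64 for the purothionin gene THI1.1. A relation with the serpins alone was not tested. A probe set of the purothionin gene THI1.1 within that list had r = -0.55 with TUBA(CA614766) over 72 arrays, and -0.34 without the 12 lines whose arrays disagreed. By day that r lay between -0.77 and 0.18, above 0 on 2 of the 8 days, and across replicates it was 0.068 and 0.044. The part of cell makeup or RNA quality in these relations was not tested.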
